A study of Mus musculus with 80 samples.

Results

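The EGF-family and HGF growth signals of the mouse liver were followed through 7 transcripts, the ligand genes Hbegf, Tgfa, Nrg1 and Hgf and the receptor genes Egfr, Erbb3 and Met. They were taken by symbol from a list of 8 genes, and 7 of the 8 were among the 14560 genes of the table. Areg, the gene for amphiregulin, was not analysed here. The samples were 80 livers of 8-week-old female C57BL/6J mice that either carried an inactivated Adamts12 gene (Adamts12-/-, a line made for an earlier study) or were wild type. The product of Adamts12 is a protease that cells release into the matrix around them. Each mouse was injected once into the peritoneum with carbon tetrachloride (CCl4, a hepatotoxin activated by cytochrome P450 in hepatocytes) at 0.3 ml per kg, as a 3% solution by volume in olive oil, or with the olive oil vehicle alone, and the liver was taken after 4 h, 12 h, 24 h or 7 days. The 16 groups, in the order Adamts12-/- CCl4, Adamts12-/- vehicle, wild-type CCl4 and wild-type vehicle at each time, held 5 livers each. Libraries of polyadenylated RNA were sequenced, and the values are normalized counts, that is reads per gene divided by 1 size factor per library. Changes are log2 differences ± SE of (normalized counts + 1), which understates the change of genes with few reads. They were tested two-sided with limma, adjusted by Benjamini-Hochberg over the 14558 genes tested, and a change with an adjusted p under 0.05 is called a rise or a fall.

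EGF-family ligands are made as membrane-bound precursors that cell-surface proteases release. HB-EGF (Hbegf) and transforming growth factor alpha (Tgfa) bind the EGF receptor (Egfr), while neuregulin 1 (Nrg1) binds ERBB3 (Erbb3) or ERBB4. ERBB3 has little kinase activity of its own and signals through a partner such as EGFR or ERBB2. HGF (Hgf) is secreted as an inactive precursor, mainly by non-parenchymal liver cells, is cleaved by serine proteases and acts on MET (Met), the receptor kinase of hepatocytes. Both receptor systems are known for driving hepatocyte survival and division through RAS and ERK after liver injury.

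Recovered depth was 18.65 to 64.49 M (mega) reads per library (median 32.74 M), and 3 reads were worth 1.16 to 6.01 normalized counts. Adamts12 stood at 0.949 to 25.4 normalized counts (median 6.72) in 38 Adamts12-/- livers and at 5.89 to 75.6 (median 18.8) in 40 wild-type livers, a difference of -1.43 ± 0.23 over vehicle livers (limma adjusted p = 8.54e-05). In CCl4 livers of 12 h the genotypes did not separate, with means of 14.4 in Adamts12-/- and 15.1 in wild-type livers. There Adamts12-/- replicates 2 and 4 held 25.4 and 20.3, against 11.4 to 18.9 in wild type. At 4 h, 24 h and 7 days the Adamts12-/- CCl4 mean was below the wild-type one. Which part of the gene the line lacks is not given in the sources used here. At 12 h Adamts12-/- CCl4 replicate 5 and Adamts12-/- vehicle replicate 1 stood with the other treatment: on an axis where the vehicle mean lies at -1 and the CCl4 mean at 1 they lay at -0.98 and 1.18. Both were left out of the values below unless named, which leaves 78 libraries and 4 per Adamts12-/- group at 12 h. Wild-type CCl4 24 h replicate 4 had the highest summed mesothelial, B cell, myofibroblast and red cell markers of its group (1584, 1307, 12408 and 38264 normalized counts), against at most 21.2, 123, 3526 and 6368 in the other 4. Mice numbered below 7000 in the labels were unevenly spread, with 0 of 5 in wild-type CCl4 livers and 4 of 5 in wild-type vehicle livers at 24 h. At 7 days they made up 4 of 5 wild-type CCl4 and 2 of 5 wild-type vehicle mice, and at 12 h 2 of 5 wild-type CCl4 mice and 0 of 5 vehicle mice. All mice numbered below 7000 were wild type. Leaving them out leaves 1 wild-type vehicle liver at 24 h and 1 wild-type CCl4 liver at 7 days.

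The members differ widely in level. Per kilobase of exon, vehicle livers of wild-type mice at 24 h held 1405 normalized counts per kb of Egfr, 1092 of Erbb3, 446 of Met, 80.2 of Tgfa, 57.4 of Hgf, 9.67 of Hbegf and 0.944 of Nrg1 (means, n = 5). The SDs of neighbouring genes in this order overlapped for Tgfa and Hgf (15.4 and 15.8 per kb), and not for Erbb3 and Met (57.9 and 43.8 per kb). The 3 receptor transcripts stood above the 3 EGF-family ligands at that time. In CCl4 livers of the same time Erbb3 stood at 294 per kb, Tgfa at 213, Hgf at 65.6 and Nrg1 at 58.7.

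The genes lie on chromosome 5 (Hgf, 16553495 to 16620152), 6 (Met, 17463800 to 17573980, and Tgfa, 86195223 to 86275719), 8 (Nrg1, 31814551 to 32884029), 10 (Erbb3, 128567523 to 128589652), 11 (Egfr, 16752203 to 16918158) and 18 (Hbegf, 36504927 to 36515805) of GRCm38, in the GENCODE M21 annotation, with Nrg1, Erbb3 and Hbegf on the minus strand. Annotated genes on the opposite strand overlap Egfr (Egfros), Tgfa (Gm43917) and Nrg1 (Gm26578 and Gm22140), and whether counting used strand is not given in the sources used here. The 250 bases before the first start site of Tgfa, which rose after CCl4, and of Egfr and Hgf, which fell at 12 h in wild type, are shown 5′ to 3′ from RefSeq (GRCm38.p6, plus strand) at chr6:86194972-86195221, chr11:16751953-16752202 and chr5:16553245-16553494. Capitals mark GC-boxes, GGGCGG on either strand. 
Tgfa: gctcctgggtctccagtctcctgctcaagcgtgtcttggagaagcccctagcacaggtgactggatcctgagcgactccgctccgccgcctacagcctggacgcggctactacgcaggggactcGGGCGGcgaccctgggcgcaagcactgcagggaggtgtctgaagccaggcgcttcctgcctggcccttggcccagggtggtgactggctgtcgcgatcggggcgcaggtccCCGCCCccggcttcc
Egfr: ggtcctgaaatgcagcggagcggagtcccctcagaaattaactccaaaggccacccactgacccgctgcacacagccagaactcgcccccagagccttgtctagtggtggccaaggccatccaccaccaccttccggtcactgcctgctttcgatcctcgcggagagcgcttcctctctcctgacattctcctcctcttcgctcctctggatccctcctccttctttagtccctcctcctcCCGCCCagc
Hgf: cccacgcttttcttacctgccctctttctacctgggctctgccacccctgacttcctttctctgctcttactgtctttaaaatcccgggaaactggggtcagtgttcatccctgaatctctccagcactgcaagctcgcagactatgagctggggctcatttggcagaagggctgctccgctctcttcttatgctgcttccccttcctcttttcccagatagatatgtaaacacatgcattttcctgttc
Tgfa held 2 GC-boxes, Egfr 1 and Hgf 0, and 32.7% of 32851 promoter windows of this length hold at least 1. The window of Met, the 4th reported, is not shown: it held 3 GC-boxes, starting 239, 117 and 20 bases before the start site, 1 AP-1 match (TGAGTCA, from base 54 to base 48 before the start site) and 1 E-box (from base 126 to base 121). None of the 3 windows shown held AP-1 (TGANTCA, 6.75% of windows), CRE (TGACGTCA, 1.55%), C/EBP-ATF (TGATGCAA, 0.791%), E-box (CACGTG, 6.02%), TATA-box (12.4%, letters TATAAA) or ETS (CCGGAAGT, 2.88%) letters on either strand, and the 7 patterns do not contain each other.

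The first question was which growth signals CCl4 changed and when. The answer split by role only in part: Hbegf, Tgfa and Nrg1 were called higher at 2 or 3 of the 4 times, while the receptor genes fell at 1 or more times. The ligand gene Hgf was not called higher at any time and fell at 12 h in wild type. At 4 h 2 of 7 members rose and 2 fell in Adamts12-/- livers, where 38.8% of all genes tested were called (21.1% higher and 17.7% lower). In wild-type livers of 4 h 2 rose and 1 fell, with 43.6% of all genes called (23.1% higher and 20.5% lower). Of all genes with a call at 4 h in Adamts12-/- livers 54.5% were higher, and 44.3% after quantile normalization. At 12 h 3 of 7 members rose and 2 fell in Adamts12-/- livers, where 46.7% of all genes tested were called (23.6% higher and 23.1% lower). In wild-type livers of 12 h 3 rose and 3 fell, with 58.4% of all genes called (29% higher and 29.4% lower). At 24 h 3 of 7 members rose and 3 fell in Adamts12-/- livers, where 44.1% of all genes tested were called (21.1% higher and 23% lower). In wild-type livers of 24 h 3 rose and 2 fell, with 51.2% of all genes called (26.2% higher and 25% lower). By 7 days 0 of 7 members were called in either genotype, with 0.694% of genes called in Adamts12-/- livers and 0.055% in wild type, and 1839 and 2462 genes at an unadjusted p under 0.05. With so many genes called at 4 h to 24 h, the number of members called says little about them, and the results lie in the direction, size and time of each. These are bulk livers, in which fewer cells of a type and less RNA per cell cannot be told apart.

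**Figure D1:**
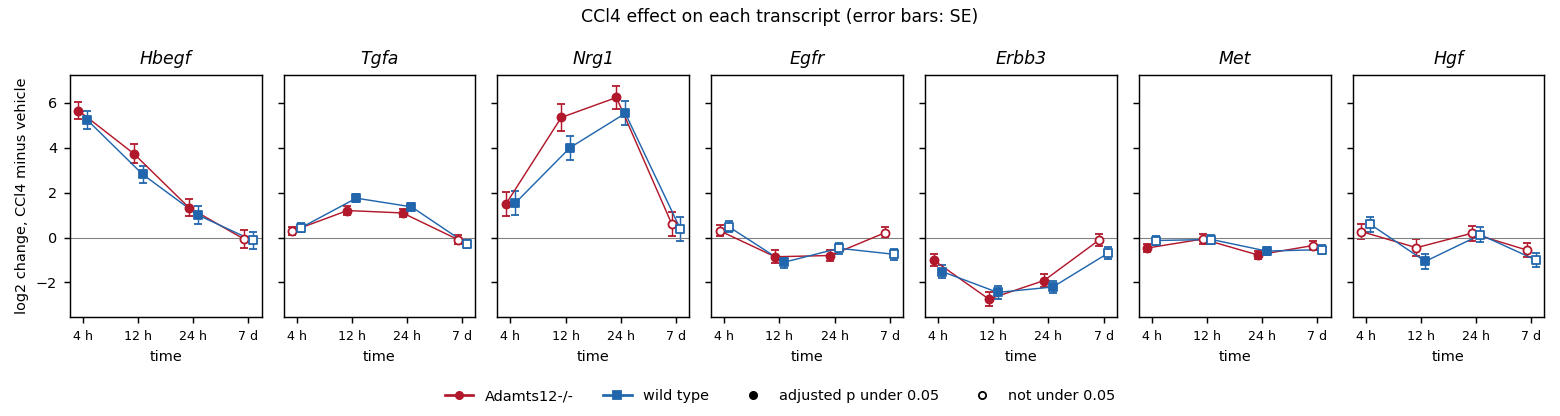
CCl4 effect on each of the 7 transcripts (log2 change ± SE, CCl4 minus vehicle livers) against time after injection, with Adamts12-/- livers in red and wild-type livers in blue and filled symbols for an adjusted p under 0.05. Hbegf was highest at 4 h (5.65 and 5.23 in Adamts12-/- and wild-type livers) and Nrg1 at 24 h (6.24 and 5.53), while Erbb3 was lowest at 12 h (-2.74 and -2.44).

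Hbegf, the gene of HB-EGF, rose at 4 h, 12 h and 24 h in both genotypes. At 4 h its mean was 51.6 times that of vehicle livers in Adamts12-/- mice and 50.8 times in wild type, or 32.98 times in wild type without CCl4 replicate 2, and it came closer to vehicle at each later time. The Adamts12-/- CCl4 livers of 4 h held 1147, 880.0, 1339, 2003 and 1220.1 normalized counts, against 12.0, 25.9, 31.8, 32.5 and 25.6 in Adamts12-/- vehicle livers. Wild-type CCl4 livers held 1359, 2952, 498, 1017 and 318, against 37.6, 18.1, 20.7, 24.1 and 20.4 in wild-type vehicle livers. Every CCl4 liver stood above every vehicle liver in both genotypes, and the wild-type CCl4 livers were the more spread, with replicates 3 and 5 lowest. The change at 4 h was 5.65 ± 0.38 in Adamts12-/- livers (limma adjusted p = 6.24e-20) and 5.23 ± 0.38 in wild type (adjusted p = 1.72e-18).

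At 12 h Hbegf stood at 238, 196, 339 and 224 in Adamts12-/- CCl4 livers, against 26.6, 10.2, 22.1 and 14.9 in Adamts12-/- vehicle livers. In wild type the CCl4 livers held 267, 204, 399.8, 308 and 165, against 36.1, 62.5, 31.7, 17.2 and 44.9 in vehicle livers. The groups again did not overlap. The rise was 3.74 ± 0.43 in Adamts12-/- livers (limma adjusted p = 8.34e-11) and 2.82 ± 0.38 in wild type (adjusted p = 4.25e-09). With the 2 libraries that were left out, 19.95 in the CCl4 one and 161 in the vehicle one, the Adamts12-/- rise was 2.40 ± 0.50 (adjusted p = 0.00247). At 24 h Adamts12-/- CCl4 livers held 94.8, 40.9, 81.8, 32.0 and 74.0, against 31.9, 25.5, 15.4, 19.0 and 27.1 in Adamts12-/- vehicle livers, and the lowest CCl4 liver lay just above the highest vehicle liver. Wild-type CCl4 livers held 111, 81.7, 96.9, 43.9 and 94.6 at that time, against 28.8, 35.2, 21.8, 45.9 and 102 in vehicle livers, where the groups overlapped, since vehicle replicate 5 was below CCl4 replicate 1 alone. The change at 24 h was 1.34 ± 0.38 in Adamts12-/- livers (limma adjusted p = 0.00337) and 1.01 ± 0.38 in wild type (adjusted p = 0.024). The wild-type call at 24 h was lost without CCl4 replicate 1 (0.90, adjusted p = 0.0638) or 3 (0.95, 0.0511) and without vehicle replicate 1 (0.89, 0.0657) or 3 (0.79, 0.0979), and without mice numbered below 7000, which leaves 1 vehicle liver, the value was -0.31 ± 0.65 (adjusted p = 0.78). By 7 days Hbegf averaged 59.2 ± 20.2 in Adamts12-/- CCl4 livers and 62.6 ± 23.0 in Adamts12-/- vehicle livers (SD, n = 5 each), with 42.9 ± 13.6 in wild-type CCl4 and 49.3 ± 21.6 in wild-type vehicle livers.

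Tgfa, the gene of transforming growth factor alpha, rose at 12 h and 24 h. Its mean at 12 h was 2.31 times that of vehicle livers in Adamts12-/- mice and 3.45 times in wild type, and at 24 h 2.21 and 2.65 times. At 4 h it averaged 551 ± 44.6 normalized counts in Adamts12-/- CCl4 livers and 458 ± 102 in Adamts12-/- vehicle livers (SD, n = 5 each), and the groups overlapped (0.29 ± 0.19, limma adjusted p = 0.234). Wild-type livers of 4 h averaged 594 ± 109 with CCl4 and 441 ± 94.6 with vehicle (0.44 ± 0.19, adjusted p = 0.0555), where vehicle replicate 4 was lowest at 275. That difference passed the threshold without CCl4 replicate 3 (0.49, adjusted p = 0.0475) or 5 (0.54, 0.0247) or vehicle replicate 3 (0.49, 0.0449) or 5 (0.49, 0.0483).

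The 12 h livers held 1232, 1854, 2143 and 1733 normalized counts of Tgfa in Adamts12-/- CCl4 mice, against 575, 689.6, 887 and 857 in Adamts12-/- vehicle mice. The wild-type CCl4 mice had 2458, 1355, 2870.1, 2707 and 2445, against 852, 733, 538, 635 and 677 in vehicle livers. No CCl4 liver overlapped the vehicle livers of its genotype, and 4 of the 5 wild-type CCl4 livers lay close together with replicate 2 apart and lower. The rise was 1.20 ± 0.21 in Adamts12-/- livers (limma adjusted p = 4.05e-06) and 1.75 ± 0.19 in wild type (adjusted p = 6.17e-12). The Adamts12-/- rise was lost with the 2 libraries that were left out, 579 in the CCl4 one and 2869 in the vehicle one (0.50 ± 0.26, adjusted p = 0.163). At 24 h Adamts12-/- CCl4 livers stood at 2049.9, 1116, 1725, 1022 and 1145, against 577, 639.7, 598, 742 and 631 in Adamts12-/- vehicle livers. Wild-type values were 1810.1, 1712, 1167, 803 and 1411 with CCl4, against 630.1, 628, 444, 471 and 429.8 with vehicle. Again no groups overlapped, and the lowest CCl4 value was that of wild-type replicate 4. The rise at 24 h was 1.09 ± 0.19 (limma adjusted p = 3.87e-06) in Adamts12-/- livers and 1.37 ± 0.19 (adjusted p = 1.86e-08) in wild type. By 7 days the means were 519.8 ± 82.2 in Adamts12-/- CCl4 and 555 ± 106 in Adamts12-/- vehicle livers, and 543 ± 109 in wild-type CCl4 and 651 ± 34.0 in wild-type vehicle livers (SD, n = 5 each).

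Nrg1, which encodes the ERBB3 ligand neuregulin 1, rose at 4 h, 12 h and 24 h in both genotypes. It was a rare transcript in vehicle livers, with group means of 4.88 to 18.5 normalized counts, and was far more abundant at 12 h and 24 h after CCl4. At 4 h Adamts12-/- CCl4 livers held 21.9, 35.9, 84.4, 36.7 and 61.6, against 16.04, 18.8, 14.1, 18.1 and 8.54 in Adamts12-/- vehicle livers, with no overlap. Wild-type CCl4 livers held 55.8, 56.3, 23.8, 64.8 and 17.9, against 10.04, 18.1, 6.31, 20.9 and 14.4 in vehicle livers, and CCl4 replicate 5 lay within the vehicle range. This early rise was 1.503 ± 0.53 in Adamts12-/- livers (limma adjusted p = 0.0193) and 1.52 ± 0.53 in wild type (adjusted p = 0.0158). The Adamts12-/- call was lost without CCl4 replicate 3 (1.27, adjusted p = 0.071) or vehicle replicate 5 (1.33, 0.0592). The wild-type one was lost without CCl4 replicate 4 (1.34, adjusted p = 0.0522) or vehicle replicate 3 (1.29, 0.0587), and both were lost when all 80 libraries set the spread (adjusted p = 0.112 in Adamts12-/- and 0.0981 in wild type).

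At 12 h Nrg1 stood at 295, 475, 704 and 317 normalized counts in Adamts12-/- CCl4 livers, against 9.66, 5.65, 9.20 and 14.9 in Adamts12-/- vehicle livers. In wild-type livers it stood at 251, 129.6, 511, 306 and 512 with CCl4, against 26.7, 17.4, 12.5, 19.1 and 17.0 with vehicle. All CCl4 livers lay well above the vehicle livers. The rise was 5.35 ± 0.59 in Adamts12-/- livers (limma adjusted p = 3.25e-11) and 4.01 ± 0.53 in wild type (adjusted p = 2.09e-09). With the 2 libraries that were left out, 12.5 in the CCl4 one and 669 in the vehicle one, it was 3.15 ± 0.75 in Adamts12-/- livers (adjusted p = 0.00527). At 24 h Adamts12-/- CCl4 livers held 624, 67.3, 659, 166 and 1154, against 8.79, 0, 3.84, 6.33 and 5.42 in Adamts12-/- vehicle livers, where the library listed at 0 allows up to 4.77 normalized counts, the value of 3 reads. In wild type the CCl4 values were 697, 406, 971, 93.4 and 872, against 12.2, 15.1, 6.53, 5.27 and 9.79 in vehicle livers. The CCl4 livers did not overlap the vehicle livers, but they differed among themselves by more than at 12 h: replicates 2 and 4 of the knockout and replicate 4 of wild type were below the rest. The mean was 109.5 times the vehicle mean in Adamts12-/- livers (6.24 ± 0.53, limma adjusted p = 1.01e-14) and 62.2 times in wild type (5.53 ± 0.53, adjusted p = 3.28e-13), where it was 6.11 ± 0.53 without CCl4 replicate 4 and 5.44 ± 0.94 without mice numbered below 7000. By 7 days Nrg1 averaged 21.4 ± 10.2 in Adamts12-/- CCl4 and 13.5 ± 6.02 in Adamts12-/- vehicle livers, and 15.8 ± 8.38 in wild-type CCl4 and 11.6 ± 5.71 in wild-type vehicle livers (SD, n = 5 each).

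**Figure D2:**
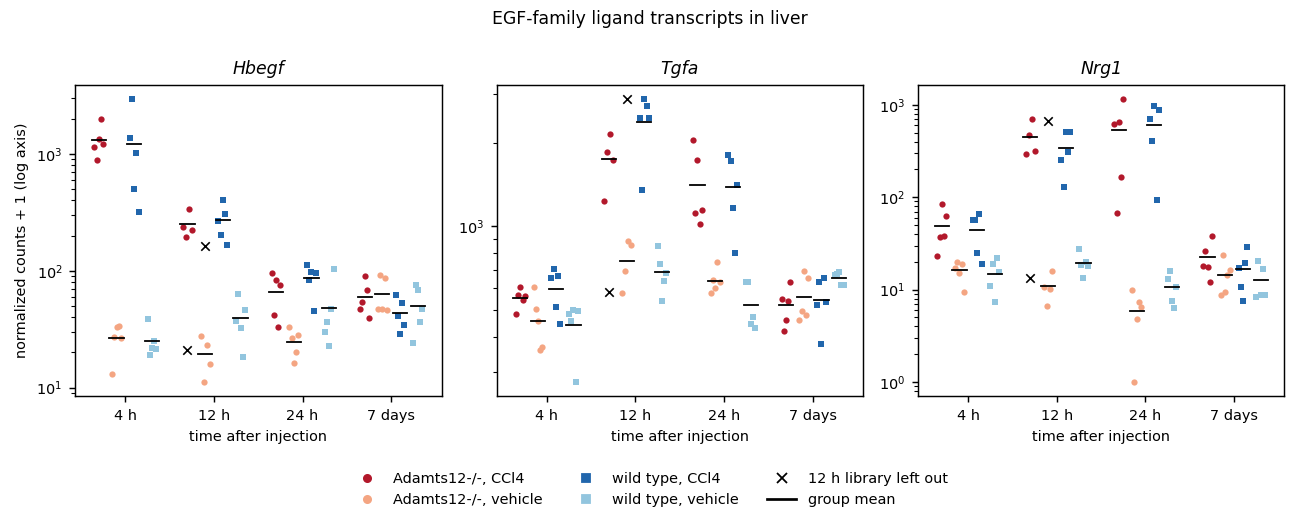
Normalized counts + 1 (log axis) of Hbegf, Tgfa and Nrg1 in each liver by time after injection, CCl4 left of vehicle and Adamts12-/- left of wild type, with bars for group means and crosses for the 2 libraries left out at 12 h. Mean Hbegf was 1318 in Adamts12-/- and 1229 in wild-type CCl4 livers at 4 h, Tgfa reached 1740.3 and 2367 at 12 h, and Nrg1 534 and 608 at 24 h.

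Change between times was tested as the difference between CCl4 effects at successive times, averaged over genotypes. From 4 h to 12 h, where 44.4% of all genes were called, 6 of 7 members differed: the Hbegf effect fell by 2.16 (SE 0.40, limma adjusted p = 8.52e-06), while that of Tgfa rose by 1.11 ± 0.20 (adjusted p = 5.15e-06) and that of Nrg1 by 3.17 ± 0.55 (adjusted p = 2.99e-06). Egfr (-1.37 ± 0.26, limma adjusted p = 1.53e-05), Hgf (-1.19 ± 0.34, 0.00311) and Erbb3 (-1.33 ± 0.29, 0.000125) moved down in that interval, and the Erbb3 call was lost with all 80 libraries (-0.78 ± 0.38, 0.103). From 12 h to 24 h 3 of 7 were called (25% of genes). Hbegf fell further (-2.11 ± 0.40, limma adjusted p = 5.09e-05), Met fell (-0.61 ± 0.19, 0.0159) and Hgf rose (0.91 ± 0.34, 0.0389). The Hgf call was lost in 15 of 38 fits that left out 1 library (values over all 38 fits 0.77 to 1.01, adjusted p = 0.0213 to 0.0824) and with all 80 libraries (0.83 ± 0.33, 0.07). The Met call was lost without mice numbered below 7000 (-0.55 ± 0.25, adjusted p = 0.117). For Nrg1 the 24 h effect minus the 12 h effect was 1.21 ± 0.55 (95% interval 0.11 to 2.30, adjusted p = 0.0973). It passed the threshold without wild-type CCl4 24 h replicate 4 (1.496, adjusted p = 0.0277), without Adamts12-/- CCl4 24 h replicate 2 (1.502, 0.0261) and with all 80 libraries (2.30 ± 0.75, 0.0267). Erbb3, not called in that interval, passed without wild-type CCl4 24 h replicate 3 (0.70, limma adjusted p = 0.0425). Between 24 h and 7 days 5 of 7 were called (50.6% of genes), with Nrg1 at -5.39 (SE 0.53), Tgfa at -1.42 (SE 0.19), Hbegf at -1.27 (SE 0.38) and Hgf at -0.93 (SE 0.33), and Erbb3 at 1.66 ± 0.28 (limma adjusted p at most 0.0145). Without mice numbered below 7000 the Hbegf and Hgf calls of that interval were lost (-0.80 ± 0.54, adjusted p = 0.281, and -0.76 ± 0.45, 0.209).

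Some markers of other cells rose at times when ligand genes rose, and their part in these rises was not tested. Of 6 monocyte and macrophage markers 0 were called at 4 h in either genotype, when Hbegf rose. At 12 h 2 rose and 0 fell in Adamts12-/- livers and 2 rose and 1 fell in wild type, and 5 rose at 24 h in each. Their summed level at 12 h ranged over 2441 to 3854 normalized counts in Adamts12-/- CCl4 livers, against 1034 to 2095 in Adamts12-/- vehicle livers, and over 2648 to 4881 in wild-type CCl4, against 837 to 2051 in wild-type vehicle livers. At 24 h it ranged over 2728 to 14517 normalized counts in Adamts12-/- CCl4 livers, against 502 to 1975 in Adamts12-/- vehicle livers, and over 6079.6 to 17245 in wild-type CCl4, against 1751 to 3368 in wild-type vehicle livers. Of 5 cholangiocyte markers 2 rose at 4 h in Adamts12-/- livers and 3 in wild type, and 3 rose in each at 12 h. Their summed level at 4 h ranged over 1499 to 2439 in Adamts12-/- CCl4 livers, against 532 to 926 in Adamts12-/- vehicle livers, and over 1091 to 2702 in wild-type CCl4, against 510.3 to 760.0 in wild-type vehicle livers. That sum weighs Spp1 most: its median over all libraries was 801, against 220 for Sox9, 26.5 for Krt19, 25.3 for Epcam and 17.75 for Krt7. Of 5 neutrophil markers 0 were called at 4 h and 12 h and 1 rose at 24 h in each genotype, where their summed level ranged over 298 to 5604 in Adamts12-/- CCl4 livers, against 251 to 1008 in Adamts12-/- vehicle livers, and over 1576 to 3790.1 in wild-type CCl4, against 353 to 2893 in wild-type vehicle livers. No marker of these 3 lists was at 0 in any library.

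Egfr, which encodes the receptor of HB-EGF and transforming growth factor alpha, fell at 12 h in both genotypes and at 24 h in the knockout, to 0.533 and 0.448 of the vehicle mean at 12 h in Adamts12-/- and wild-type livers. At 12 h it stood at 13826, 10352, 13803 and 11479.9 normalized counts in Adamts12-/- CCl4 livers, against 22034, 13450.1, 29093 and 28188 in Adamts12-/- vehicle livers. Wild-type livers held 11301, 9544, 10779, 12328 and 13768 with CCl4, against 13163, 23875, 29207, 31865 and 30854 with vehicle. In each genotype 1 vehicle liver (replicate 3 in the knockout, replicate 1 in wild type) lay within the CCl4 range and the others above it. The fall was -0.86 ± 0.28 in Adamts12-/- livers (limma adjusted p = 0.00955) and -1.10 ± 0.25 in wild type (adjusted p = 0.000145). With all 80 libraries the Adamts12-/- value was -0.63 ± 0.26 (adjusted p = 0.0765), with 21634 in the CCl4 and 18000.1 in the vehicle library that were left out. Wild-type vehicle replicate 1 at 12 h was lowest of its group in Erbb3, Met and Hgf too, and highest in Tgfa and Nrg1. Its Hbegf lay between the others.

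At 24 h Egfr held 13968, 10923, 16982, 12804 and 10852 normalized counts in Adamts12-/- CCl4 livers, against 22465, 21966, 21191, 18024 and 30592 in Adamts12-/- vehicle livers, without overlap (-0.80 ± 0.25, limma adjusted p = 0.00728). Quantile normalization ended both Adamts12-/- calls, with -0.26 ± 0.28 at 12 h (adjusted p = 0.464) and -0.22 ± 0.25 at 24 h (adjusted p = 0.507). Wild-type livers of 24 h held 16451, 14991, 7897, 7175 and 13075 with CCl4, against 13875, 19202, 17884, 16181 and 12434 with vehicle, and overlapped (-0.48 ± 0.25, adjusted p = 0.105). Without CCl4 replicate 1 the value was -0.61 (adjusted p = 0.0496). The Adamts12-/- livers of 7 days averaged 12606 ± 4048 with CCl4 and 10544 ± 2461 with vehicle (SD, n = 5 each). At 7 days the wild-type CCl4 livers held 6377, 9129, 8719, 8593 and 6194, all below the vehicle livers at 17585, 12181, 12644, 9572 and 13885. That difference was -0.75 ± 0.25 (unadjusted p = 0.00413 in limma, adjusted p = 0.117), in a comparison where 0.055% of genes were called, and 4 of the 5 CCl4 mice were numbered below 7000. At 4 h the means were 36745 ± 11026 in Adamts12-/- CCl4 and 30651 ± 11357 in Adamts12-/- vehicle livers, and 33849 ± 10298 in wild-type CCl4 and 23985 ± 6423 in wild-type vehicle livers, with overlap in both genotypes.

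Erbb3, the gene of the neuregulin receptor ERBB3, fell at 4 h, 12 h and 24 h in both genotypes. Its mean was 0.505 and 0.347 of the vehicle mean at 4 h in Adamts12-/- and wild-type livers, 0.154 and 0.19 at 12 h and 0.3 and 0.269 at 24 h. At 4 h Adamts12-/- CCl4 livers held 2123, 1959, 3308, 3720.2 and 2949 normalized counts, against 5304, 4784, 5929, 7195 and 4626 in Adamts12-/- vehicle livers. Wild-type livers held 2076, 2338, 1959, 1850.0 and 2588 with CCl4, against 5814, 6025, 5154, 6259.8 and 7878 with vehicle. No groups overlapped, and the wild-type CCl4 livers were close together. The fall at 4 h was -1.01 ± 0.28 in Adamts12-/- livers (limma adjusted p = 0.00254) and -1.52 ± 0.28 in wild type (adjusted p = 6.11e-06). By 12 h Adamts12-/- CCl4 livers stood at 1351, 822, 683 and 882, against 6291, 5390.5, 5919 and 6679 in Adamts12-/- vehicle livers. Wild-type livers stood at 923, 1698, 664, 1123 and 1300.3 with CCl4, against 4451, 6315, 7466, 6149 and 5627 with vehicle. Every CCl4 liver lay far below every vehicle liver. The fall was -2.74 ± 0.31 (limma adjusted p = 6.14e-11) in Adamts12-/- livers and -2.44 ± 0.28 (adjusted p = 2.32e-11) in wild type. The 2 libraries that were left out held 6338 in the CCl4 and 958 in the vehicle liver, and with them the Adamts12-/- fall was -1.65 ± 0.38 (adjusted p = 0.00455).

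At 24 h Erbb3 held 1343, 2821, 1472, 2691 and 670.4 normalized counts in Adamts12-/- CCl4 livers, against 5596, 5841, 5749, 5973 and 6836 in Adamts12-/- vehicle livers. In wild type it held 1088, 1693, 556, 4086 and 1407 with CCl4, against 6663, 6701, 6708, 6819.5 and 5955 with vehicle. The vehicle livers lay within a narrow range, whereas the CCl4 livers were spread, with wild-type replicate 4 highest. The fall was -1.91 ± 0.28 (limma adjusted p = 7.33e-08) in Adamts12-/- livers and -2.20 ± 0.28 (adjusted p = 1.27e-09) in wild type, or -2.58 ± 0.26 without wild-type CCl4 replicate 4 and -2.06 ± 0.50 without mice numbered below 7000. At 7 days the means were 6841 ± 1466 in Adamts12-/- CCl4 and 7466 ± 1850.1 in Adamts12-/- vehicle livers, and 4917 ± 1483 in wild-type CCl4 and 7724 ± 1348 in wild-type vehicle livers (SD, n = 5 each; wild-type difference -0.69 ± 0.28, adjusted p = 0.174). Nrg1 and its receptor gene lay at opposite ends within the CCl4 livers of 24 h: the 3 livers with the least Nrg1 (67.3, 93.4 and 166) had the most Erbb3 (2821, 4086 and 2691), and the 2 with the most Nrg1 (1154 and 971) had the least Erbb3 (670.4 and 556). The same 3 livers had the lowest summed monocyte and macrophage markers (2728, 6079.6 and 3060 normalized counts, in the order of their Nrg1 values above), against 11743 to 17245 in the other 7. They also had the highest summed hepatocyte markers (3045150, 2633850 and 3050380), against 1575610 to 2180480 in the other 7, and the part of these cells in the pattern was not tested. The hepatocyte sum is mostly Alb, with a median over all libraries of 2921015, against 267998 for Apoa1, the next marker. The pattern is a description of 10 livers of both genotypes, read from the same libraries as the tests above, with no test of its own.

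**Figure D3:**
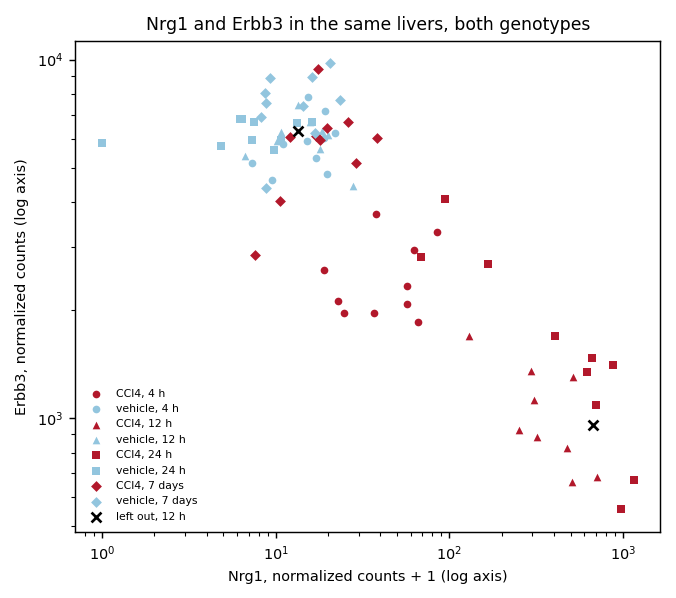
Erbb3 against Nrg1 in each of the 80 livers (normalized counts, Nrg1 + 1, both axes log), CCl4 in red and vehicle in blue with a symbol for each time and crosses for the 2 libraries left out. The CCl4 livers of 12 h and 24 h lie at lower right, and the library labelled CCl4 at 12 h that was left out (Nrg1 12.5, Erbb3 6338) lies among the vehicle livers.

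Met, the gene of the HGF receptor, fell at 24 h in both genotypes, to 0.611 of the vehicle mean in Adamts12-/- and 0.688 in wild-type livers, and at 4 h in the knockout. At 24 h Adamts12-/- CCl4 livers held 2803, 2281, 2454, 2282 and 1022 normalized counts, against 3003, 3747, 3515, 3099 and 4372 in Adamts12-/- vehicle livers. Wild-type livers held 2196, 3448, 1346, 2032 and 2775 with CCl4, against 3386, 3756, 3503, 3615 and 2878 with vehicle. The knockout groups did not overlap and CCl4 replicate 5 was lowest, whereas wild-type CCl4 replicate 2 lay within the vehicle range. The fall was -0.77 ± 0.19 (limma adjusted p = 0.000595) in Adamts12-/- livers and -0.60 ± 0.19 (adjusted p = 0.00592) in wild type. The wild-type call was lost without CCl4 replicate 3 (-0.42, adjusted p = 0.0635) and without mice numbered below 7000 (-0.36 ± 0.34, 0.495), and was kept with mouse number as a term (-0.65 ± 0.22, 0.0161). At 4 h Adamts12-/- CCl4 livers held 3481, 3876, 4050.0, 3047 and 3452, against 4217, 4183, 5979.8, 5513 and 4958 in Adamts12-/- vehicle livers, without overlap (-0.47 ± 0.19, limma adjusted p = 0.0433). This call was lost without any 1 of CCl4 replicates 1, 4 and 5 and vehicle replicates 3, 4 and 5 (values -0.46 to -0.39, adjusted p = 0.0664 to 0.118) and without mice numbered below 7000, which changes only the spread (adjusted p = 0.0569). Wild-type livers of 4 h averaged 4035 ± 1051 with CCl4 and 4369 ± 935 with vehicle (SD, n = 5 each). At 12 h the means were 2986 ± 312 in Adamts12-/- CCl4 and 3121 ± 188 in Adamts12-/- vehicle livers (n = 4 each), and 2859.7 ± 554 in wild-type CCl4 and 3045 ± 566 in wild-type vehicle livers (n = 5 each). At 7 days wild-type CCl4 livers held 2116, 1938, 1569, 2666 and 2277, all below the vehicle livers at 2818, 3305, 3092, 3183 and 2757 (-0.54 ± 0.19, adjusted p = 0.125). Without CCl4 replicate 4 the difference passed (-0.63, adjusted p = 0.0457).

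Hgf, the ligand of MET, was the 1 of the 4 member ligands that was not called higher at any time. It fell at 12 h in wild type, to 0.491 of the vehicle mean. At 12 h Adamts12-/- livers held 223, 359, 345 and 184 normalized counts with CCl4, against 359.9, 253, 399 and 491 with vehicle. Wild-type CCl4 livers held 182, 241, 88.5, 237 and 278, against 233, 465, 478, 555 and 360.3 in vehicle livers. In wild type vehicle replicate 1 lay within the CCl4 range and the other 4 above it, and in the knockout the groups overlapped more. The difference was -0.45 ± 0.37 in Adamts12-/- livers (95% interval -1.18 to 0.28, limma adjusted p = 0.321) and -1.06 ± 0.33 in wild type (adjusted p = 0.00439), or -1.15 ± 0.36 in wild type without mice numbered below 7000. At 4 h Hgf averaged 531 ± 81.4 in Adamts12-/- CCl4 and 461 ± 155 in Adamts12-/- vehicle livers, and 836 ± 407 in wild-type CCl4 and 526 ± 179 in wild-type vehicle livers (SD, n = 5 each; wild-type difference 0.60 ± 0.33, adjusted p = 0.139). Without wild-type CCl4 replicate 5 that difference was 0.82 (adjusted p = 0.0432). The 24 h means were 479 ± 157 and 409 ± 90.7 in Adamts12-/- CCl4 and vehicle livers, and 472 ± 226 and 412 ± 113 in wild-type CCl4 and vehicle livers. At 7 days Adamts12-/- CCl4 livers held 176, 90.5, 179.7, 173 and 192, against 257, 167, 278, 161 and 345 in Adamts12-/- vehicle livers (-0.56 ± 0.33, adjusted p = 0.51). For wild type the CCl4 livers had 163, 127, 50.03, 250.1 and 244, against 401, 279, 357, 241 and 213 in wild-type vehicle livers (-0.996 ± 0.33, adjusted p = 0.112). The groups overlapped in both genotypes at 7 days, and the wild-type difference passed without CCl4 replicate 4 (-1.19, adjusted p = 0.0295).

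Part of the markers of the liver's own cells fell at times when receptor genes or, in wild type, Hgf fell, and their part in these falls was not tested. Of 8 hepatocyte markers 3 fell and 1 rose at 4 h in Adamts12-/- livers, 7 fell at 12 h and 6 at 24 h. In wild type 2 fell and 1 rose at 4 h, 8 fell at 12 h and 6 at 24 h. Their summed level at 12 h ranged over 1746450 to 3130650 normalized counts in Adamts12-/- CCl4 livers, against 3611250 to 5112520 in Adamts12-/- vehicle livers, and over 1338280 to 3045810 in wild-type CCl4, against 3221430 to 5464600 in wild-type vehicle livers. That sum is mostly Alb, as stated above. The median change of the 8 hepatocyte markers at 12 h was -1.13 in Adamts12-/- and -1.31 in wild-type livers, beside -2.74 and -2.44 for Erbb3, -0.86 and -1.10 for Egfr and -0.07 and -0.09 for Met. Of 8 stellate cell markers 3 fell at 12 h in each genotype, of 6 Kupffer cell markers 4 fell in each, and of 8 sinusoidal endothelial markers 3 fell in Adamts12-/- and 8 in wild-type livers. Of all genes tested 23.1% were lower at 12 h in Adamts12-/- and 29.4% in wild-type livers. The summed stellate level at 12 h ranged over 4396 to 6303 in Adamts12-/- CCl4 livers, against 6044 to 8163 in Adamts12-/- vehicle livers, and over 5107 to 7822 in wild-type CCl4, against 6334 to 12170.5 in wild-type vehicle livers. Ecm1 weighs most in the stellate sum: its median over all libraries was 4262, against 1325 for Reln and 773 for Colec11, the next markers. The summed sinusoidal level was 4763 to 7063 in Adamts12-/- CCl4 livers, against 7870.9 to 11636 in Adamts12-/- vehicle livers, and 3253 to 6026 in wild-type CCl4, against 6564 to 13832 in wild-type vehicle livers. For Kupffer cell markers it was 4156 to 13938 in Adamts12-/- CCl4 livers, against 8584 to 19868 in Adamts12-/- vehicle livers, and 2650.4 to 9512 in wild-type CCl4, against 6092 to 13622 in wild-type vehicle livers. At 12 h the summed stellate and Kupffer ranges overlapped between treatments in both genotypes, and the hepatocyte and sinusoidal ranges did not. No marker of these 4 lists was at 0 in any library.

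**Figure D4:**
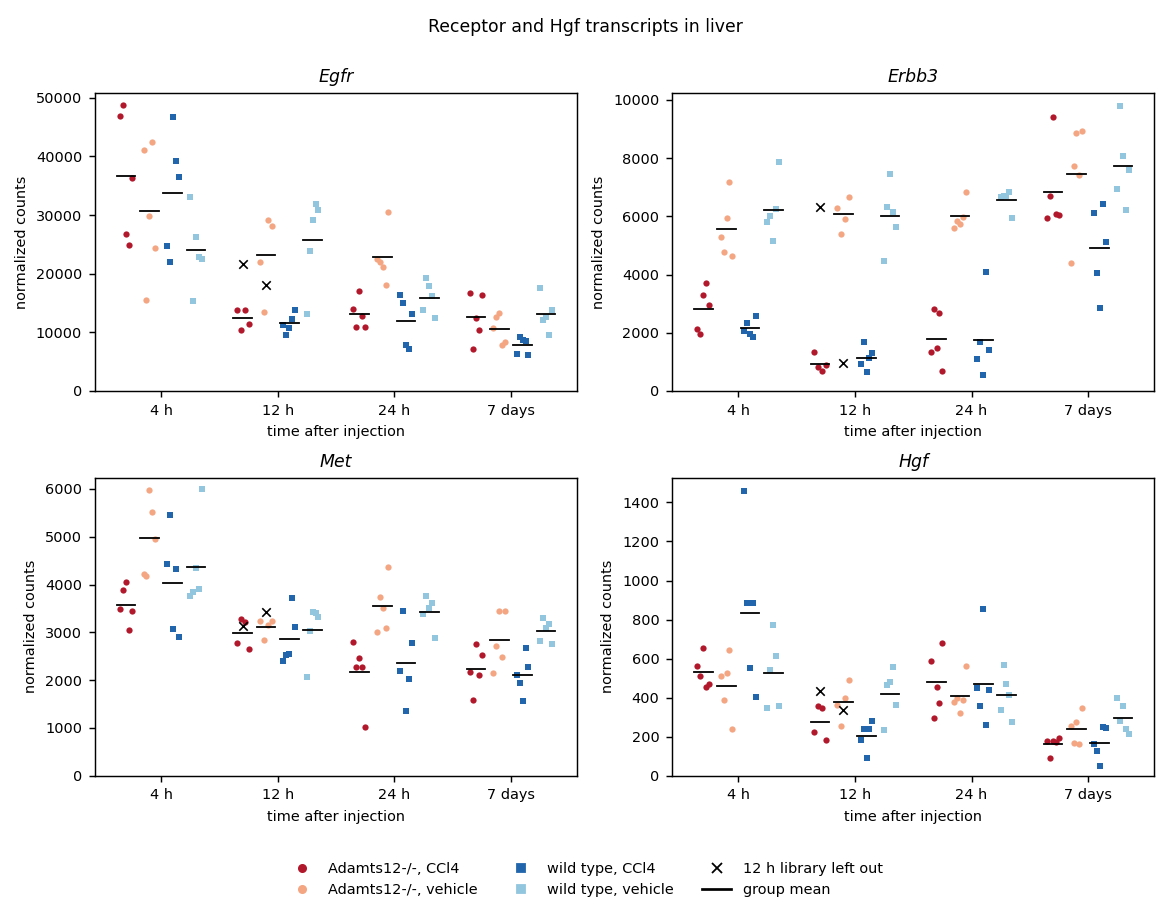
Normalized counts of Egfr, Erbb3, Met and Hgf in each liver by time after injection (linear axes from 0), CCl4 left of vehicle and Adamts12-/- left of wild type, with bars for group means and crosses for the 2 libraries left out at 12 h. Mean Erbb3 at 12 h was 935 in Adamts12-/- CCl4 livers, against 6069.7 in Adamts12-/- vehicle livers, and 1142 in wild-type CCl4, against 6002 in wild-type vehicle livers.

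Whether the loss of Adamts12 changed these signals was asked in the CCl4 effect, knockout minus wild type, and in livers of the same treatment. No member was called in any of these comparisons. For the difference between the CCl4 effects 0 of 7 members were called at each time, in limma fits that called 0.00687% of all genes at 4 h, 0% at 12 h, 0% at 24 h and 0.00687% at 7 days, with 682, 410, 694 and 1638 genes at an unadjusted p under 0.05. The widest intervals were those of Nrg1, at 12 h 1.34 ± 0.80 (95% interval -0.25 to 2.93) and at 24 h 0.71 ± 0.75 (-0.79 to 2.21), so differences of several fold in its response could not be detected at this number of livers. For Hbegf the difference was 0.42 ± 0.54 at 4 h (-0.66 to 1.505) and 0.92 ± 0.58 at 12 h (-0.23 to 2.07). Tgfa at 12 h gave -0.55 ± 0.29 (-1.13 to 0.02, unadjusted p = 0.0598), with the smaller rise in the knockout. Erbb3 gave -0.30 ± 0.42 at 12 h (-1.13 to 0.54). Met at 24 h gave -0.17 ± 0.27 (-0.71 to 0.36) and Hgf at 12 h 0.61 ± 0.49 (-0.37 to 1.59). The smallest unadjusted p was that of Egfr at 7 days, where the CCl4 effect was 0.22 in Adamts12-/- and -0.75 in wild-type livers, a difference of 0.97 ± 0.36 (0.26 to 1.68, unadjusted p = 0.00816, limma adjusted p = 0.315). This difference was 1.16 ± 0.55 without mice numbered below 7000, which takes out 4 of the 5 wild-type CCl4 livers. In CCl4 livers 0 of 7 members differed between genotypes at 4 h, 12 h, 24 h and 7 days (0.584%, 0.0206%, 0.0137% and 0% of genes called, and 1282, 1381, 987 and 1051 at an unadjusted p under 0.05). In vehicle livers 0 of 7 differed at the 4 times either (0.343%, 0%, 0% and 0.055% of genes called, and 1389, 506, 1231 and 1186 at an unadjusted p under 0.05), and 0 over their mean (0.282%, and 1113 genes). Over vehicle livers of all times the differences, knockout minus wild type, lay between -0.40 ± 0.27 for Nrg1 and 0.09 ± 0.13 for Egfr.

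Vehicle livers were themselves not constant in time. Over the 4 times 5 of 7 members differed in Adamts12-/- vehicle livers (41.7% of genes called): Egfr (limma adjusted p = 1.48e-05), Hbegf (0.00162), Met (0.00215), Tgfa (0.0156) and Nrg1 (0.0236). In wild type 2 of 7 did (38.9% of genes), Egfr (0.00399) and Tgfa (0.012). Egfr averaged 30651 ± 11357, 23191 ± 7212, 22848 ± 4661 and 10544 ± 2461 normalized counts at 4 h, 12 h, 24 h and 7 days in Adamts12-/- vehicle livers (SD, n = 5, 4, 5 and 5), lowest at 7 days. In wild-type vehicle livers it averaged 23985 ± 6423, 25793 ± 7703, 15915 ± 2785 and 13173 ± 2924 (SD, n = 5 each). Erbb3 was not called in either genotype (adjusted p = 0.627 and 0.662), nor was Hgf (0.0721 and 0.216). The Nrg1 call in the knockout was lost without vehicle 24 h replicate 2, the library at 0 (adjusted p = 0.232), with a pseudocount of 8 (0.305) and with quantile normalization (0.0503). The Tgfa call was lost without vehicle 4 h replicate 4 in the knockout (0.057) or in wild type (0.0727), without vehicle 4 h replicate 5 in the knockout (0.0519), and in wild type with all 80 libraries (0.101).

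Other ligands and receptors of the family were followed as lists chosen by function, whose shares called are to be read beside those of all genes given above and whose median changes stand beside medians of all genes between -0.0502 and 0.0402. Of 4 further EGF-family ligands measured (Egf, Btc, Ereg and Nrg4; Epgn, Nrg2 and Nrg3 were not analysed here), 2 rose at 4 h in each genotype, 2 in Adamts12-/- and 1 in wild-type livers at 12 h, 2 in each at 24 h and 0 at 7 days, and none fell (median changes of the 4 genes 0.99 and 1.02 at 4 h and 0.97 and 1.07 at 24 h). Without wild-type CCl4 replicate 4, 2 rose and 1 fell at 24 h in wild type, where Egf stood at -1.45 ± 0.35 (limma adjusted p = 0.000361), against -0.76 (adjusted p = 0.113) with it. With all 80 libraries 1 of the 4 rose at 12 h in Adamts12-/- livers, where the Ereg call was lost. Btc, the gene of the EGFR ligand betacellulin, rose at 4 h, 12 h and 24 h. At 4 h it averaged 1076 ± 149 in Adamts12-/- CCl4 livers and 28.3 ± 6.68 in Adamts12-/- vehicle livers (SD, n = 5 each; 5.22 ± 0.27, limma adjusted p = 8.25e-26), and in wild type 1065 ± 373 and 34.3 ± 11.6 (4.89 ± 0.27). Its rise was 3.31 ± 0.30 in Adamts12-/- and 3.78 ± 0.27 in wild-type livers at 12 h, and 1.81 ± 0.27 and 1.85 ± 0.27 at 24 h. Ereg, which encodes the ligand epiregulin, rose at 24 h by 3.83 ± 0.66 in Adamts12-/- and 3.68 ± 0.66 in wild-type livers. Egf rose in Adamts12-/- livers at 4 h by 1.07 ± 0.41. Of the 2 other receptor genes Erbb2 was not called at any time, and Erbb4 fell in wild type at 24 h (-2.95 ± 0.82, adjusted p = 0.00207) with -0.53 ± 0.82 in Adamts12-/- livers, a difference of 2.42 ± 1.17 that was not called (adjusted p = 0.936).

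Proteases that release the membrane-bound ligands, and regulators of this release, rose mainly at 24 h. The shedding genes counted here include Timp3, whose product inhibits such proteases and which was not called at 4 h or 12 h. Of 10 shedding genes 2 rose in Adamts12-/- and 3 in wild-type livers at 4 h, 2 rose and 1 fell in each at 12 h, and 7 and 6 rose at 24 h (median 0.81 and 0.82), with 4 of 10 higher in wild type without CCl4 replicate 4. Rhbdf2 and Rhbdf1, inactive rhomboids that carry the sheddase ADAM17 to the cell surface, rose from 4 h on: Rhbdf2 by 2.47 ± 0.20 in Adamts12-/- and 2.38 ± 0.20 in wild-type livers at 4 h, and Rhbdf1 by 2.40 ± 0.24 and 2.20 ± 0.21 at 12 h. Adam17 itself, the main sheddase of HB-EGF and transforming growth factor alpha, was called only at 24 h, by 0.34 ± 0.11 and 0.40 ± 0.11. At that time Adam8 rose by 2.83 ± 0.68 in Adamts12-/- and 1.67 ± 0.68 in wild-type livers (1.61, adjusted p = 0.0536, without wild-type CCl4 replicate 4), and Adam19 by 1.41 ± 0.25 and 0.95 ± 0.25.

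The proteases that process HGF moved in opposite directions. Of 12 genes of HGF activation and inhibition 2 rose and 1 fell in Adamts12-/- livers at 4 h, 5 and 4 at 12 h and 5 and 4 at 24 h (medians -0.15, 0.74, 0.42). In wild type 2 rose and 3 fell at 4 h, 4 and 4 at 12 h and 5 and 4 at 24 h. Plaur, the urokinase receptor, rose by 6.45 ± 0.60 in Adamts12-/- and 4.84 ± 0.54 in wild-type livers at 12 h, where Plat, tissue plasminogen activator, rose by 3.43 ± 0.64 and 2.85 ± 0.57. Plau, the urokinase that can activate HGF, rose by 2.12 ± 0.44 and 1.92 ± 0.44 at 24 h. Hgfac, the circulating HGF activator made by hepatocytes, fell by 1.11 ± 0.16 in Adamts12-/- and 1.25 ± 0.14 in wild-type livers at 12 h and by 1.52 ± 0.14 and 1.57 ± 0.14 at 24 h. Hpn, the gene of the membrane protease hepsin, gave -1.29 ± 0.18 and -1.30 ± 0.16 at 12 h. In the list of coreceptors and tetraspanins 2 of 10 rose and 5 fell at 24 h in each genotype. There Cd44, a coreceptor of MET, rose by 1.41 ± 0.36 in Adamts12-/- and 1.04 ± 0.36 in wild-type livers, and Cd9, a tetraspanin that binds the HB-EGF precursor, by 1.37 ± 0.28 and 1.99 ± 0.28, while Sdc2, a heparan sulfate proteoglycan, fell (-1.25 ± 0.19 and -1.30 ± 0.19).

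Downstream, genes that respond to ERK were higher at 4 h, 12 h and 24 h. Of 13 measured (Fosl1 and Etv4 were not analysed here) 11 rose and 1 fell at 4 h in Adamts12-/- livers and 10 and 1 in wild type, 8 and 9 rose at 12 h, and 10 rose and 2 fell at 24 h in Adamts12-/- livers and 10 and 0 in wild type. The list medians were 3.22, 1.97, 2.29 in Adamts12-/- livers, and many of these genes also answer to other stress signals. Dusp5, an ERK phosphatase, rose by 6.06 ± 0.46 in Adamts12-/- and 7.02 ± 0.46 in wild-type livers at 4 h, and Maff, a small MAF transcription factor, by 5.48 ± 0.51 and 5.02 ± 0.51. Dusp6, the ERK phosphatase often read as a gauge of ERK activity, rose by 3.03 ± 0.35 and 3.01 ± 0.35 at 4 h and by 1.68 ± 0.35 and 1.87 ± 0.35 at 24 h, with 0.60 ± 0.39 (not called) and 0.95 ± 0.35 at 12 h. Myc rose by 5.60 ± 0.51 and 5.38 ± 0.45 at 12 h and Dusp4 by 5.62 ± 0.64 and 5.25 ± 0.57. Ccnd1, cyclin D1 of the G1 phase, was the gene of this list that fell at 4 h (-1.74 ± 0.34 and -1.81 ± 0.34) and rose at 24 h (2.75 ± 0.34 and 2.30 ± 0.34).

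Feedback inhibitors of the receptors changed in both directions. Of 19 genes of receptor feedback and turnover 9 rose in Adamts12-/- and 10 in wild-type livers at 4 h and none fell. At 12 h 6 rose and 1 fell in Adamts12-/- livers and 9 and 4 in wild type, and at 24 h 5 and 3, and 6 and 2. Errfi1, which binds and blocks EGFR, stood at 0.50 ± 0.33 (not called) in Adamts12-/- livers and rose by 0.92 ± 0.33 in wild type at 4 h, and fell at 12 h (-0.99 ± 0.37 and -1.27 ± 0.33; in Adamts12-/- livers -0.69, adjusted p = 0.138, with all 80 libraries). At 7 days it rose in wild type (1.64 ± 0.33, limma adjusted p = 0.0159), with -0.07 ± 0.33 in Adamts12-/- livers, and 4 of the 5 wild-type CCl4 mice were numbered below 7000. The difference between the genotypes was -1.72 ± 0.47 (adjusted p = 0.304). Spred1, an inhibitor of RAS signalling, rose by 1.74 ± 0.16 and 1.67 ± 0.16 at 4 h, and Cblb, a ubiquitin ligase for active receptors, by 1.42 ± 0.18 and 1.45 ± 0.18. Rnf41, the ubiquitin ligase NRDP1 that is known to mark ERBB3 for degradation, rose at 12 h by 0.99 ± 0.17 and 1.05 ± 0.16 and at 24 h by 0.66 ± 0.16 and 0.91 ± 0.16. Of 23 adaptor and relay genes 11 rose and 5 fell in Adamts12-/- livers at 4 h and 10 and 3 in wild type. At 12 h Gab2, a docking protein, rose by 2.25 ± 0.26 and 2.30 ± 0.23. With all 80 libraries the Adamts12-/- counts at 12 h were smaller, for example 7 of 13 ERK-responsive genes and 3 of 19 feedback genes higher and 2 of 12 HGF-processing genes higher.

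**Figure D5:**
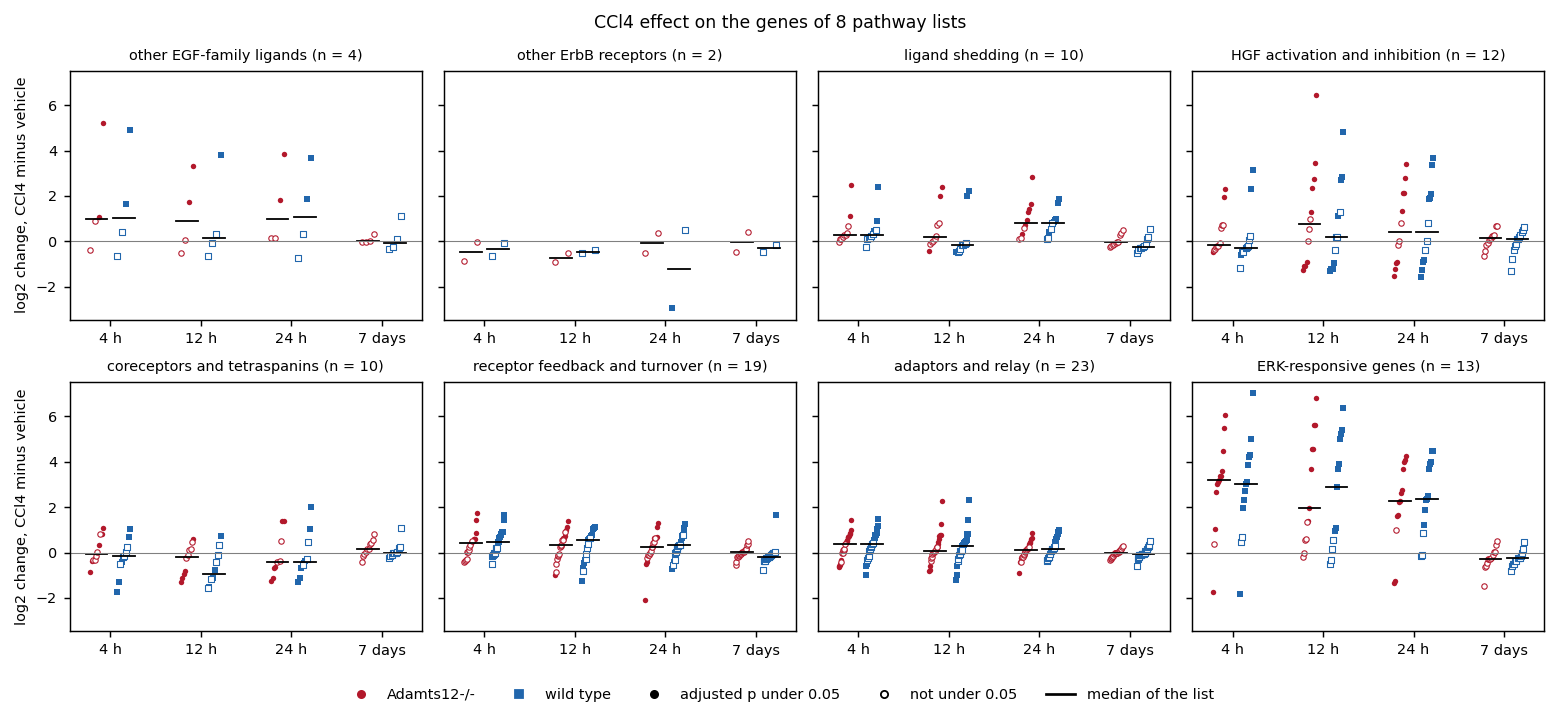
Log2 change, CCl4 minus vehicle, of each gene of the 8 pathway lists by time after injection, Adamts12-/- livers in red and wild-type livers in blue, filled where the adjusted p is under 0.05, with bars for the list median. The ERK-responsive list has medians of 3.22 and 3.01 at 4 h and -0.27 and -0.26 at 7 days in Adamts12-/- and wild-type livers.

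The genes whose 16 group means of log2(normalized counts + 1) were most like those of each member, by Pearson's r over these means, are given as a description. For Hbegf they were Mast4 (0.972), Mdfic (0.971) and Zfand5 (0.969). For Tgfa they were Rabif (0.984), Ccn4 (0.977) and Vars (0.976). For Nrg1 they were Acot9 (0.978), Phgdh (0.969) and Foxred2 (0.967). Erbb3 was followed most closely by Zfp799 (0.989), Hsd17b11 (0.983) and Aldh8a1 (0.982), and Egfr by Ash1l (0.961), Cdh4 (0.949) and Smurf2 (0.948). Met was followed by Mctp2 (0.921), Mapk14 (0.907) and Wdr45b (0.887) and, among the genes reported, Hgf by Dhx9 (0.928) and Gpkow (0.928).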

How the data were processed

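Poly(A) RNA of 80 livers was made into TruSeq Stranded mRNA libraries from 500 ng of total RNA and sequenced on an Illumina NovaSeq, per the labels' protocols. STAR, HTSeq, DESeq2 and the GRCm38 build are named, per the submitters' processing notes, without versions. The deposited signal is a table of normalized counts made by the authors, in which the values of each library are whole multiples of 1 step within a tolerance of 0.01. That step is taken as 1 read, which gives the depths stated above, and the intervals of 3 reads cover counting error only.

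From these values log2(normalized counts + 1) was fitted with limma 3.58.1 in R 4.3.3 (trended variance, 16 group means, 78 libraries). The test covered the 14558 of 14560 genes that reached 10 normalized counts in 5 or more libraries, and p-values were adjusted by Benjamini-Hochberg within each comparison. The procedure was tested on simulated data. Replicates carry mouse numbers in the labels, so they are taken as separate animals, and no 2 libraries had identical values (highest correlation 0.990). Levels per kb use the union of exons in GENCODE M21. Each of the 7 members is counted in every comparison, and values are given for some members and times only. From each pathway list up to 4 called genes with the largest changes in the comparison described are named, beside Errfi1, Dusp6, Adam17, Plau and Hgfac. Results of 3 genes that these rules would name are not reported here. The members and the lists were chosen with earlier results of these data known. Promoter windows were matched by symbol, and motif results are given for 4 of the 7 members (Hgf, Met, Egfr and Tgfa). Erbb3 and Nrg1 had no entry, and the window of Hbegf is not reported here. Alternatives were another pseudocount (8), no filter or a mean of at least 50, all 80 libraries, quantile normalization, only the compared groups, mouse number as a term, leaving out mice numbered below 7000, a replicate block and leaving out each library. The list counts with all 80 libraries or without wild-type CCl4 24 h replicate 4, and the ratios of means without each library, were chosen after seeing the data.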

Additional observations from a re-analysis of the deposited data

Results flagged for a closer look

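In 9 of 112 groups of 4 or 5 livers 1 liver lay apart from the others of its group by Dixon's test at the 95% level, where chance gives about 1 group in 20. Hgf was 90.5 normalized counts in Adamts12-/- CCl4 replicate 2 at 7 days, against 173 to 192 in the other livers of its group. Met was 1022 in Adamts12-/- CCl4 replicate 5 at 24 h (others 2281 to 2803) and 2071 in wild-type vehicle replicate 1 at 12 h (others 3027 to 3422). Erbb3 was 9412 in Adamts12-/- CCl4 replicate 3 at 7 days (others 5958 to 6692), and 4390.0 in Adamts12-/- vehicle replicate 1 at 7 days (others 7405 to 8949.5). In wild-type vehicle replicate 5 at 24 h Erbb3 was 5955 (others 6663 to 6819.5). Hbegf was 12.0 in Adamts12-/- vehicle replicate 1 at 4 h (others 25.6 to 32.5). Tgfa was 1355 in wild-type CCl4 replicate 2 at 12 h (others 2445 to 2870.1) and 275 in wild-type vehicle replicate 4 at 4 h (others 456 to 499.9).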

How the results depend on the processing

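Of 56 member changes between CCl4 and vehicle livers 29 were called, and 21 of these were called under every alternative run. With all 80 libraries 3 members were called in Adamts12-/- livers at 12 h, against 5, and 1 between times in wild-type vehicle livers, against 2. Without mice numbered below 7000 the count was 3 at 24 h in wild type, against 5, and 3 between 24 h and 7 days, against 5. There the Hbegf change at 24 h in wild type turned to -0.31, with 1 vehicle liver left. Leaving out 1 library gave 2 to 4 members in Adamts12-/- livers at 4 h, and in wild type 2 to 5 at 4 h, 3 to 5 at 24 h, 0 to 2 at 7 days and 1 to 2 between times in vehicle livers. Signs of changes that were not called flipped 126 times. The causes of these shifts were not tested. Counts over all genes moved most with the libraries used: 2397 genes, against 6805, in Adamts12-/- livers at 12 h and 55, against 101, at 7 days with all 80 libraries, and 2743, against 7458, in wild type at 24 h and 3934, against 7372, between 24 h and 7 days without mice numbered below 7000. With only the compared groups 14 genes were called in Adamts12-/- livers at 7 days. Leaving out 1 library gave 6 to 286 genes there and 1 to 855 in wild type at 7 days. Between genotypes, counts were small and unstable, such as 0 to 351 in CCl4 livers at 24 h. Replicate numbers do not pair the livers (correlation over 0.1 in 8 of 38 pairs, median -0.01). A replicate block changed 0 member calls, with Met in Adamts12-/- livers at 4 h at -0.47 (adjusted p = 0.0472). A planned count test on reads recovered from the steps of the deposited values was not run. Nrg1 lies near the value of 3 reads in Adamts12-/- vehicle livers of 24 h (mean 4.88 normalized counts). Its means in the other vehicle groups were 9.77 to 18.5, and these low levels limit its fold changes.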
